A study of Hordeum vulgare with 10 samples.

Results

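In barley roots and shoots sampled after 1 h of heat, 92 genes rose strongly in both tissues, out of 24211 gene identifiers of the MLOC_ series found in both deposited tables. Genes were chosen by the deposited group means of both conditions. The mean normalized count in heat plus 1 had to be at least 8 times the mean in control plus 1, and the heated mean at least 100, in roots and in shoots alike. Hsp90.1, which served as the marker of heat induction, and the 10 Pi-related genes that the study was about were left out. Of these, Hsp90.1 passed both limits in both tissues and none of the Pi-related genes did. The 92 genes make up 0.380% of the identifiers.

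All plants were barley of cultivar Rolap, a spring barley, 2 weeks old. Heated roots (2 libraries) and heated shoots (3 libraries) came from plants kept at 35.5 °C for 1 h, and control roots (2 libraries) and control shoots (3 libraries) from plants kept at a constant 22 °C. Whole roots and whole shoots were used, so that fewer cells of a type and less RNA per cell cannot be told apart. Poly(A) RNA was sequenced from strand-specific libraries, and the methods describe the replicates as biological.

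When plant cells warm, misfolded proteins release heat shock transcription factors, which bind short repeated elements in promoters and switch on chaperones within minutes. The products include the Hsp100, Hsp90, Hsp70 and Hsp40 families and the small heat shock proteins, which hold or refold damaged proteins. Many of these genes are nearly silent in unstressed tissue. The identifiers of the 92 genes matched no entry of the barley gene table at hand, so that none of them is assigned here to such a family, and they are described by identifier. Reads that align to several places are in no gene count, so that a gene with a near-identical copy may be undercounted.

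The values per library are whole reads recovered from the deposited group means. Each heated root library held 16637613 or 16017345 reads in genes and each control root library 16826297 or 16139544. The heated shoot libraries held 11147754 to 11530058 reads in genes and the control shoot libraries 11408325 to 12138865. In the libraries of both tissues, these totals leave out the gene lines that could not be divided into libraries in 1 or both shoot groups. Those were 18 in heated shoots and 19 in control shoots, none of the 92 among them. They took 26.7% and 25.2% of the mean total there. Libraries of a group are numbered by their size factor, from the highest, because the tables do not carry the replicate letters. Hsp90.1 (MLOC_5618), a cytosolic chaperone, had 158900 and 172563 reads in heated roots, against 252 and 139 in control roots. In shoots it had 26786, 32804 and 23846 reads in heat, against 70, 77 and 24 in control. PHT1;1 (MLOC_28370), a phosphate transporter of the root surface whose reads cannot be told from those of PHT1;2 and PHT1;9, had 77 and 90 reads in heated roots, 982 and 989 in control roots and none in the shoot libraries.

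The 92 genes together took a trace of the reads in control plants and a sizeable part in heat. Their normalized counts summed to 2710420 and 2494233 in the heated root libraries, against 25936 and 25800 in the control root libraries. In shoots the sums were 625694, 669253 and 612567 in heat, against 15282, 15147 and 15515 in control. Libraries of 1 group differed far less than the conditions did. As a share of all normalized reads in genes, the 92 genes held 13.5% in heated roots, against 0.187% in control roots. They held 3.78% in heated shoots, against 0.107% in control shoots. With reads assigned to no gene or aligned to several places included, the shares were 5.30% in heated roots, against 0.0740% in control roots. In shoots they were then 1.22% in heat, against 0.0356% in control. Normalized counts were scaled within each tissue, so that their levels are not set across tissues.

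The rise was unevenly shared. The 10 genes with the highest heated means held 48.4% of the reads of the 92 in heated roots and 57.9% in heated shoots, and 6 genes were among the 10 highest in both tissues. Heated means ran from 131 to 192347 in roots, with a median of 9250, and from 101 to 65898 in shoots, with a median of 1864. Control means ran from 0.840 to 6401 in roots (median 83.9) and from 0 to 4205 in shoots (median 20.3). In control plants, 13 of the 92 had a mean under 10 in roots, 29 had one in shoots and 10 had one in both. Gene lengths were not at hand, so these counts rank genes by reads taken, not by transcripts.

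The folds, which the choice of genes used and which are therefore given without a test, varied widely. The median fold of heat over control (each mean plus 1) was 98.2 in roots, with a range of 8.52 to 2442, and 46.1 in shoots, with a range of 8.02 to 1410. In roots 29 genes rose at least 256-fold, 26 rose 64- to 256-fold, 30 rose 16- to 64-fold and 7 rose 8- to 16-fold. In shoots the same classes held 20, 23, 26 and 23 genes. All 20 genes at 256-fold or more in shoots were so in roots too. Over all identifiers with a mean above 0, the median log2 fold was 0.01 in roots and -0.01 in shoots, and 1.28% and 0.508% passed both limits. With edgeR's quasi-likelihood test within each tissue, 21.5% of 18433 genes in roots and 18.9% of 16336 in shoots were higher in heat at an adjusted p under 0.05. All 92 were among them in each tissue, a count that the choice of genes by these contrasts leaves without weight.

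**Figure D1:**
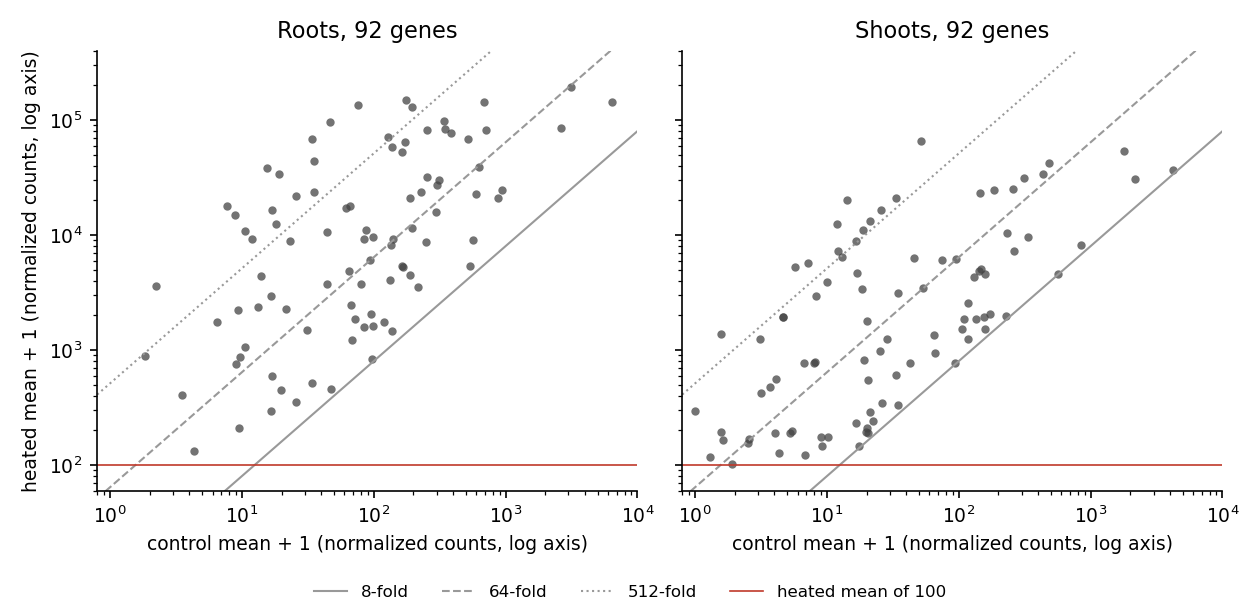
Mean normalized count plus 1 in heat (y axis) against control (x axis), both on log axes, for the 92 genes in roots (left) and shoots (right). Grey lines mark 8-, 64- and 512-fold and the red line the heated mean of 100. Heated means reach 192347 in roots and 65898 in shoots, and control means reach 6401 in roots and 4205 in shoots.

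The genes near the limits show where the set ends. By root fold the last inside were MLOC_54176 (8.52) and MLOC_64571 (9.60), and the first outside MLOC_11552 (7.89) and MLOC_57143 (7.32). By shoot fold the last inside were MLOC_10369 (8.02) and MLOC_11904 (8.25), and the first outside MLOC_29841 (7.76) and MLOC_7003 (7.48). By heated mean in shoots the last inside were MLOC_568 (101) and MLOC_10408 (116), and the first outside MLOC_37693 (94.4) and MLOC_63249 (93.8). By heated mean in roots the last inside were MLOC_25161 (131) and MLOC_57234 (207), and the first outside MLOC_51139 (34.3) and MLOC_2995 (15.4). The shoot limits were the tighter ones. Of 281 genes past both limits in roots, 33.1% passed them in shoots, and of 108 past both limits in shoots, 86.1% passed them in roots.

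The genes that took most reads in heated roots were MLOC_14228, MLOC_72334, MLOC_5001, MLOC_18664, MLOC_77985, MLOC_4447, MLOC_66541 and MLOC_2337. MLOC_14228 had 182022 and 202671 normalized counts in heated roots, against 2878 and 3366 in control roots. In shoots it had 31805, 37024 and 33633 in heat, against 468, 490 and 344 in control. Its folds were 61.6 in roots and 78.5 in shoots, and it was the highest of the 92 genes in heated roots.

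MLOC_72334 and MLOC_4447 were nearly silent in control shoots. MLOC_72334 had 151635 and 149117 normalized counts in heated roots, against 201 and 147 in control roots. In shoots it had 9951, 12905 and 10077 in heat, against 19.5, 21.8 and 11.8 in control. MLOC_4447 had 130163 and 130438 in heated roots, against 216 and 171 in control roots. It had 12919, 16423 and 10709 in heated shoots, against 23.8, 30.0 and 6.89 in control shoots. The heated root libraries of each gene lay close together. In heated shoots the highest library was 1.30 times the lowest for MLOC_72334 and 1.53 times for MLOC_4447. The control libraries were far below the heated ones of the same tissue.

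MLOC_5001 and MLOC_18664 started from a higher level. MLOC_5001 had 143562 and 145752 normalized counts in heated roots, against 708 and 662 in control roots, and 42939, 46577 and 36805 in heated shoots, against 474, 483 and 494 in control shoots. MLOC_18664 had the highest control level of the 92 in both tissues. It had 150669 and 138432 normalized counts in heated roots, against 6434 and 6369 in control roots, and 34142, 39078 and 36333 in heated shoots, against 4323, 3642 and 4650 in control shoots. Its fold of 22.6 in roots and 8.7 in shoots was accordingly low for a gene with so many reads. MLOC_26505, the third highest in control roots, was alike in this. It had 85971 and 84679 in heated roots, against 2600 and 2671 in control roots, and 8050, 9525 and 7109 in heated shoots, against 864, 802 and 861 in control shoots.

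MLOC_77985 took the most reads of the 92 in heated shoots. It had 63349, 64125 and 70218 normalized counts in heated shoots, against 62.0, 62.8 and 26.6 in control shoots. In roots it had 134577 and 134380 in heat, against 101 and 47.4 in control. Its fold was 1782 in roots and 1281 in shoots. MLOC_2337 had 113877 and 76928 in heated roots, against 72.8 and 19.0 in control roots, and 20349, 20052 and 19666 in heated shoots, against 22.9, 12.7 and 3.94 in control shoots. Its shoot fold of 1410 was the highest of the 92.

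MLOC_66541, MLOC_74019 and MLOC_75175 were high in both heated tissues, and their 2 heated root libraries differed. MLOC_66541 had 113303 and 81958 normalized counts in heated roots, against 394 and 288 in control roots, and 22797 to 26177 in heated shoots, against 169 to 205 in control shoots. MLOC_74019 had 111139 and 55333 in heated roots, against 479 and 210 in control roots, and 28761 to 33300 in heated shoots, against 280 to 347 in control shoots. MLOC_75175 had 79062 and 56731 in heated roots, against 544 and 487 in control roots, and 23860 to 26871 in heated shoots, against 241 to 266 in control shoots. The first heated root library was the higher in all 3.

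MLOC_64528 and MLOC_70817, with MLOC_18664, had the highest control means of the 92 in shoots. MLOC_64528 had 38896 and 39557 normalized counts in heated roots, against 660 and 603 in control roots, and 28446, 33069 and 31428 in heated shoots, against 2131, 2096 and 2250 in control shoots. MLOC_70817 had 4702 and 4039 in heated roots, against 18.8 and 6.90 in control roots. In shoots it had 51850, 54640 and 54442 in heat, against 1591, 2290 and 1476 in control. It was the second highest of the 92 in heated shoots.

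**Figure D2:**
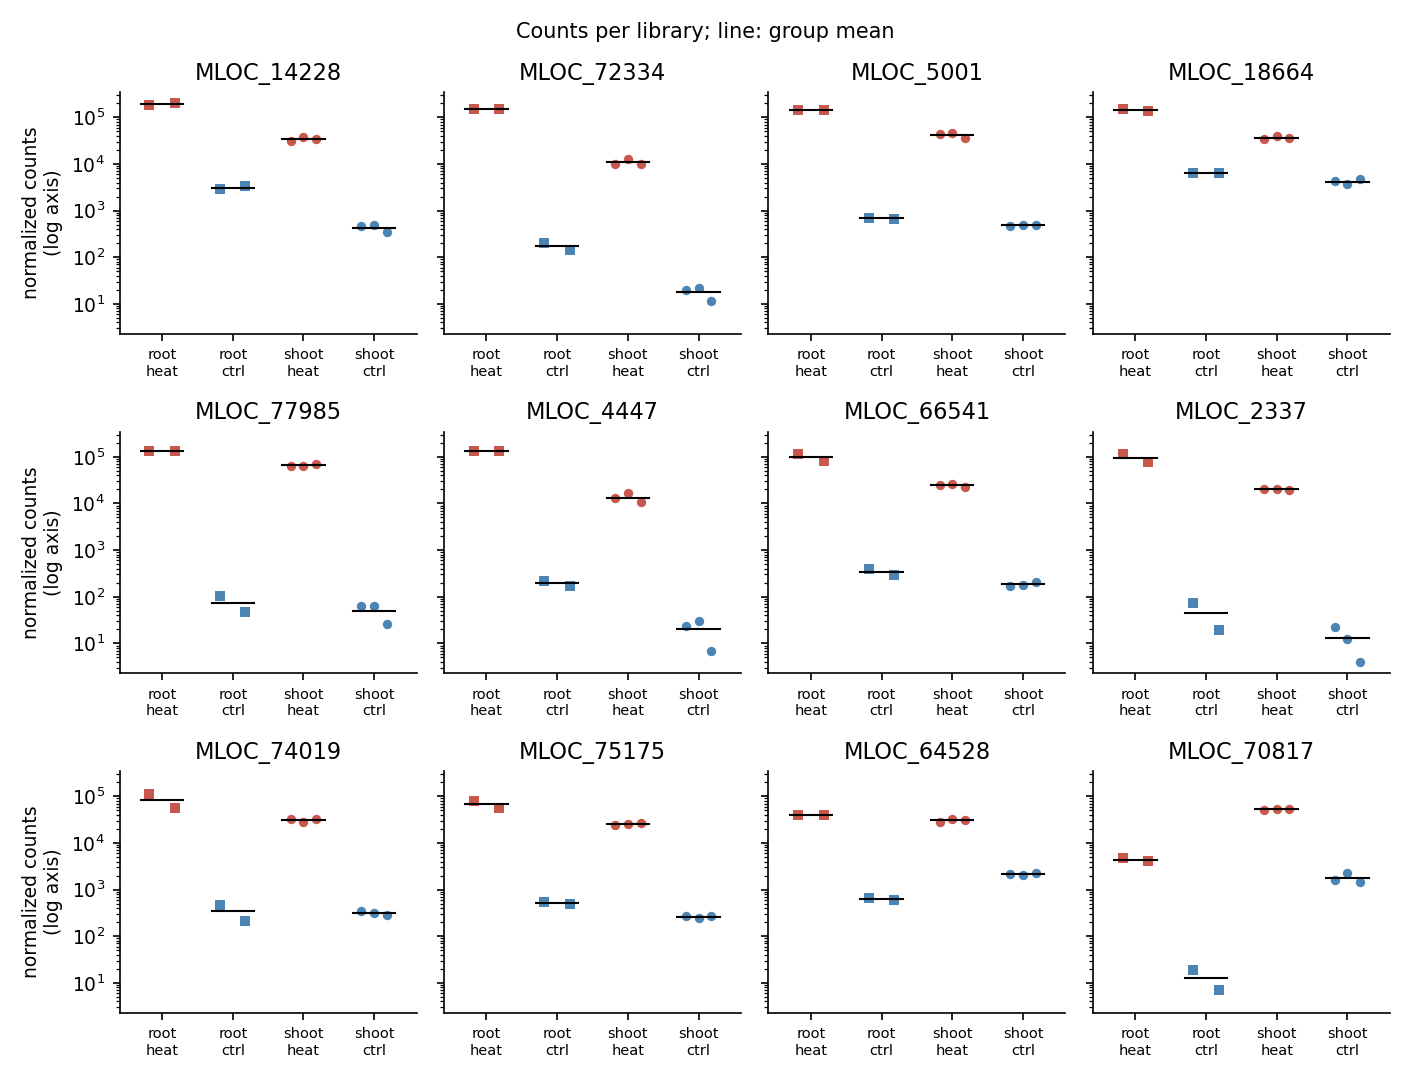
Normalized counts (log axis) in every library for 12 genes that took most reads in heated roots or shoots. In each panel the groups run from heated roots and control roots to heated shoots and control shoots, points are libraries and lines are group means. In each panel the heated libraries lie above the control libraries of the same tissue. Counts were scaled within each tissue.

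At the other end stand genes with hardly a read in control plants. MLOC_64517 had 398, 305 and 127 reads in heated shoots and none in the 3 control shoot libraries, which allows up to 3 reads over the group and makes heat at least 328-fold higher. In roots it had 10623 and 10561 reads in heat, against 23 and 18 in control. It was the one gene of the 92 with no read in a control group.

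For 7 further gene and tissue pairs the control group held 1 to 3 reads in all, and the ratio is given with its exact 95% counting interval. MLOC_69997 had 3165 and 2974 reads in heated roots, against 2 and 1 in control roots, a ratio of 2883 (986 to 13981). MLOC_2695 had 709 and 798 in heated roots, against 1 and 1 in control roots, a ratio of 1061 (293 to 8772). Both ratios are known to about an order of magnitude. In shoots MLOC_66700 had 196, 210 and 136 reads in heat, against 2, 0 and 0 in control, a ratio of 322 (88.6 to 2664). MLOC_10408 had 102, 129 and 92 in heated shoots, against 0, 1 and 0 in control shoots, a ratio of 384 (68.3 to 15194). MLOC_34983 had 201, 160 and 100 in heated shoots, against 0, 1 and 1 in control shoots, a ratio of 274 (75.3 to 2267). The other 2 pairs were MLOC_44848 and MLOC_568 in shoots, with ratios of 2293 (634 to 18938) and 110 (37.1 to 535). These intervals cover counting error only, and PCR copies of a molecule are not independent counts.

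The libraries of a group were close to each other in heat. The ratio of the highest to the lowest library had a median over the 92 of 1.11 for heated roots and of 1.23 for heated shoots, and was under 1.5 for 84 and 78 of them. In control libraries it was 1.22 in roots and 1.46 in shoots. The widest were MLOC_74019 in heated roots (2.01, given above), MLOC_51191 in heated shoots (3.34; 127, 180 and 54.0), MLOC_26766 in control roots (13.0; 33.6 and 2.59) and MLOC_65670 in control shoots (16.1; 2.55, 40.9 and 10.8). No heated library of any of the 92 genes overlapped a control library of the same tissue. The 8-fold limit on the means of these groups made that likely in advance, and the share over all genes was not computed. The closest approach was MLOC_64571 in roots, where the lowest heated library was 7.18 times the highest control library, and MLOC_57234 in shoots, at 4.33 times.

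Within the heated shoots many of the genes differed between libraries in the same direction. Library 2 was above library 3 for 73 of the 92 genes (79.3%), against 49.0% of the 14552 genes with a mean of at least 20 reads. The median difference was small, 0.19 on the log2 scale for the 92 and -0.01 for all genes. Library 3 was the lowest of the 3 for 57 of the 92 and library 2 the highest for 53. Over all 14552 genes, library 3 was the lowest for 37.1% and library 2 the highest for 29.2%. Other genes went the other way: library 3 was the highest for 16 of the 92, against 38.5% of all genes. MLOC_77985, MLOC_74019 and MLOC_75175 were among those 16. In heated roots library 1 was above library 2 for 58 of 92 (63.0%), against 49.3% of all genes.

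In the control plants the libraries of a group also differed among the genes with the highest folds. Library numbers follow the size factors within a group, so heated and control libraries of the same number are not matched. Of the 20 genes at 256-fold or more in shoots, 16 were lowest in control library 3, and the median of that library over the mean of the other two (counts plus 1) was 0.482. Of the other 72 genes, 22 were lowest there, with a median of 1.04. Of the 29 genes at 256-fold or more in roots, 24 were higher in control library 1 than in control library 2, with a median ratio of 1.39, against 31 of the other 63 with a median of 0.974. Hsp90.1 followed the same order in both tissues. These counts are a description, since the fold classes were built from the same control means. Of 17329 genes with a mean of at least 20 reads, 48.7% were higher in control root library 1 than in library 2. The share of all genes lowest in control shoot library 3 was not computed. Many of the genes with the highest folds hold few control reads.

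**Figure D3:**
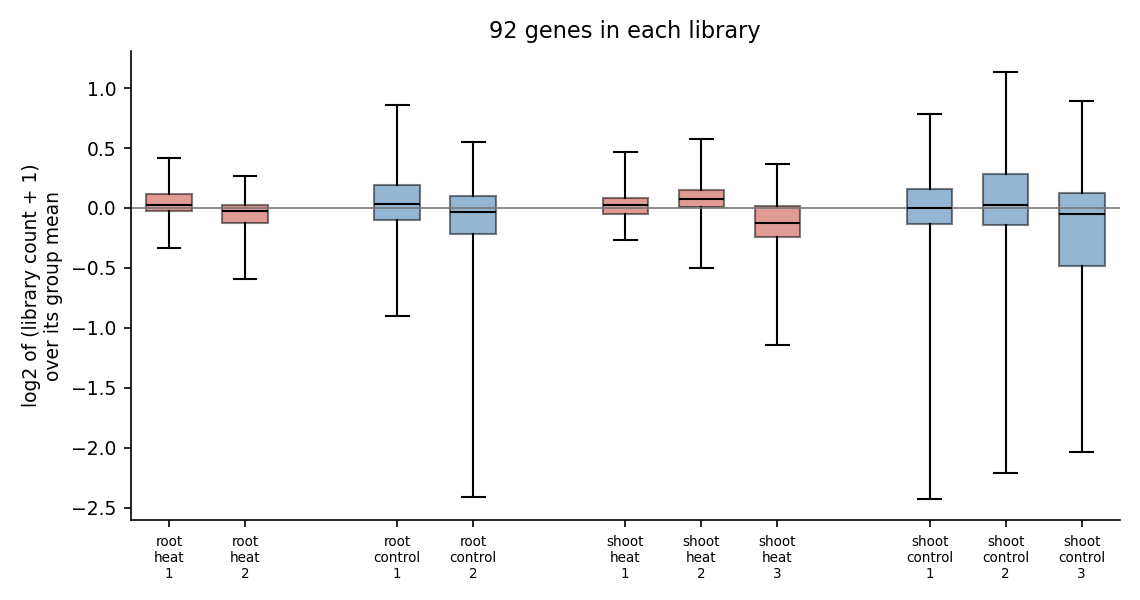
Log2 of each library's normalized count plus 1 over its group mean (y axis) for the 92 genes, by library (x axis). Boxes span the quartiles with the median as a line, whiskers reach the lowest and highest gene, red is heat and blue is control. Heated shoot library 3 lies lowest of its group, and the whiskers of the control libraries are the widest.

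The heat responses of the tissues were then compared gene by gene, by the interaction of tissue and heat in a single edgeR fit over all 10 libraries. The rule required a rise in both tissues and did not use the difference, although the responses that form it chose the genes. At an adjusted p under 0.05 over 19376 genes, the response of 37 of the 92 was larger in roots, where 10.1% of all genes tested were called so. The response of 7 was larger in shoots, where 7.76% of all genes were called so. The difference of 48 was not called. The median difference, root minus shoot, was 0.97 on the log2 scale over the 92 and 0.03 over all genes. By the folds of the deposited means, which chose the genes, 72 of the 92 rose more in roots. The shoot limits were the tighter ones and the share over all genes was not computed, so this count carries no weight of its own. Tissue and library set cannot be told apart in this design. Scaling to the total of reads in genes moved the median difference of all genes by -0.28.

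**Figure D4:**
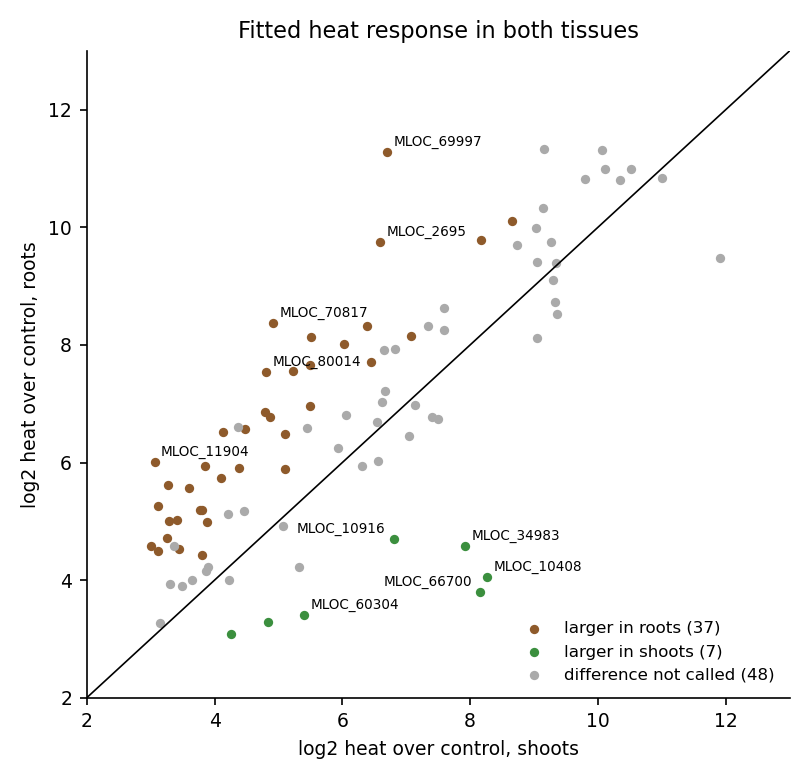
Fitted log2 of heat over control in roots (y axis) against shoots (x axis) for the 92 genes, with the line of equal response. Brown marks 37 genes with a larger response in roots, green 7 with a larger response in shoots and grey 48 whose difference was not called. The 5 most extreme called genes on each side are named.

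Among the genes with the larger response in roots, MLOC_69997 led. Its normalized counts were 3706 and 3555 in heated roots, against 1.64 and 0.86 in control roots, and 169, 180 and 148 in heated shoots, against 0.85, 1.82 and 1.97 in control shoots. The response in roots exceeded that in shoots by 4.58 (SE 0.78, edgeR adjusted p = 0.0011). Each control library held 1 or 2 reads of it, and the tissues were set apart in heat. MLOC_2695 was similar, with 830 and 954 in heated roots, against 0.82 and 0.86 in control roots, and 128, 143 and 189 in heated shoots, against 1.70, 1.82 and 0.98 in control shoots. Its difference was 3.16 (SE 0.96, edgeR adjusted p = 0.035), and the call was lost when any of 6 libraries was left out (adjusted p = 0.052 to 0.11). These were library 2 of heated roots, both control root libraries, library 2 of heated shoots and libraries 1 and 2 of control shoots. The SE of MLOC_69997 and MLOC_2695 understate the error, since the counting intervals of their root ratios given above are wider than such SE allow.

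MLOC_70817 differed by 3.45 (SE 0.39, edgeR adjusted p = 4.5e-05) on its low control level in roots. Without control root library 1 the difference was 4.29 and without control root library 2 it was 2.88. MLOC_11904 had 6537 and 5562 normalized counts in heated roots, against 119 and 66.4 in control roots, and 769, 830 and 700 in heated shoots, against 85.7, 91.9 and 98.5 in control shoots. Its difference was 2.95 (SE 0.26, edgeR adjusted p = 4.4e-06). MLOC_80014 had 2847 and 3066 in heated roots, against 12.3 and 19.0 in control roots, and 704, 386 and 545 in heated shoots, against 18.7, 20.02 and 19.7 in control shoots. Its difference was 2.74 (SE 0.43, edgeR adjusted p = 0.00054). In MLOC_11904 and MLOC_80014 the groups of heat and control were well apart in both tissues.

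Of the genes that took most reads, MLOC_64528, MLOC_26505, MLOC_18664, MLOC_5001 and MLOC_66541 also responded more in roots, by 2.10, 1.72, 1.37, 1.27 and 1.08 on the log2 scale. MLOC_66541 lost its call without heated root library 1 (edgeR adjusted p = 0.055) or control root library 2 (0.057). MLOC_74019, at 1.25 (SE 0.43, edgeR adjusted p = 0.060), was not called over all libraries. It was called without heated root library 2 (1.66) or control root library 1 (1.91).

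The 7 genes with the larger response in shoots were MLOC_66700, MLOC_10408, MLOC_34983, MLOC_10916, MLOC_60304, MLOC_15567 and MLOC_54176. The 3 with the largest difference were almost without reads in control shoots. MLOC_66700 had 356 and 345 normalized counts in heated roots, against 20.5 and 29.3 in control roots, and its difference was -4.36 (SE 0.70, edgeR adjusted p = 0.00068). MLOC_10408 had 1724 and 1532 in heated roots, against 81.9 and 113 in control roots, and its difference was -4.21 (SE 0.76, edgeR adjusted p = 0.0017). MLOC_34983 had 4875 and 4144 in heated roots, against 170 and 203 in control roots, and its difference was -3.33 (SE 0.76, edgeR adjusted p = 0.0079). The sizes rest on single control reads. The SE of these 3 genes understate the error, since the counting intervals of their shoot ratios given above are wider than such SE allow. Without control shoot library 1 the difference of MLOC_66700 was -7.54, and without control shoot library 2 that of MLOC_10408 was -6.56, since no control shoot read was then left.

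MLOC_10916, MLOC_60304, MLOC_15567 and MLOC_54176 had more reads in control shoots. MLOC_10916 had 2029 and 1710 normalized counts in heated roots, against 66.3 and 76.8 in control roots, and 743, 821 and 798 in heated shoots, against 5.94, 6.37 and 8.86 in control shoots. Its difference was -2.11 (SE 0.27, edgeR adjusted p = 0.00011). MLOC_60304 had 1477 and 1424 in heated roots, against 151 and 120 in control roots, and 203, 201 and 183 in heated shoots, against 6.79, 3.64 and 2.95 in control shoots, a difference of -2.00 (SE 0.31, edgeR adjusted p = 0.00058). MLOC_15567, at -1.55, and MLOC_54176, at -1.17, had smaller differences. MLOC_15567 had 5358 and 5291 in heated roots, against 618 and 461 in control roots, and 9237, 9593 and 9827 in heated shoots, against 313, 342 and 346 in control shoots. MLOC_54176 had 826 and 833 in heated roots, against 101 and 92.3 in control roots, and 200, 191 and 135 in heated shoots, against 8.49, 9.10 and 9.85 in control shoots.

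A difference that was not called is not an equal response, and its interval says how far apart the tissues could be. MLOC_4447 had the smallest difference, 0.04 on the log2 scale (95% interval -0.96 to 1.04). MLOC_64571 followed with 0.12 (-0.75 to 1.00) and MLOC_56457 with -0.14 (-0.66 to 0.38). MLOC_56457 had 4469 and 3640 normalized counts in heated roots, against 126 and 140 in control roots, and 5421, 3837 and 3740 in heated shoots, against 132, 123 and 134 in control shoots. MLOC_14228, the highest in heated roots, differed by -0.37 (-0.88 to 0.15), MLOC_77985 by 0.46 (-0.43 to 1.35) and MLOC_2337 by 0.47 (-0.93 to 1.87). MLOC_64517, without a read in control shoots, gave a fitted difference of -2.42 whose interval ran from -8.19 to 3.35, so that no direction can be given. In simulated counts of 18482 genes the interaction test found 44% of 2-fold and 88% of 4-fold differences. No such share was computed for genes with few control reads. These shares therefore do not give the power for genes such as MLOC_64517 or MLOC_2337.

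**Figure D5:**
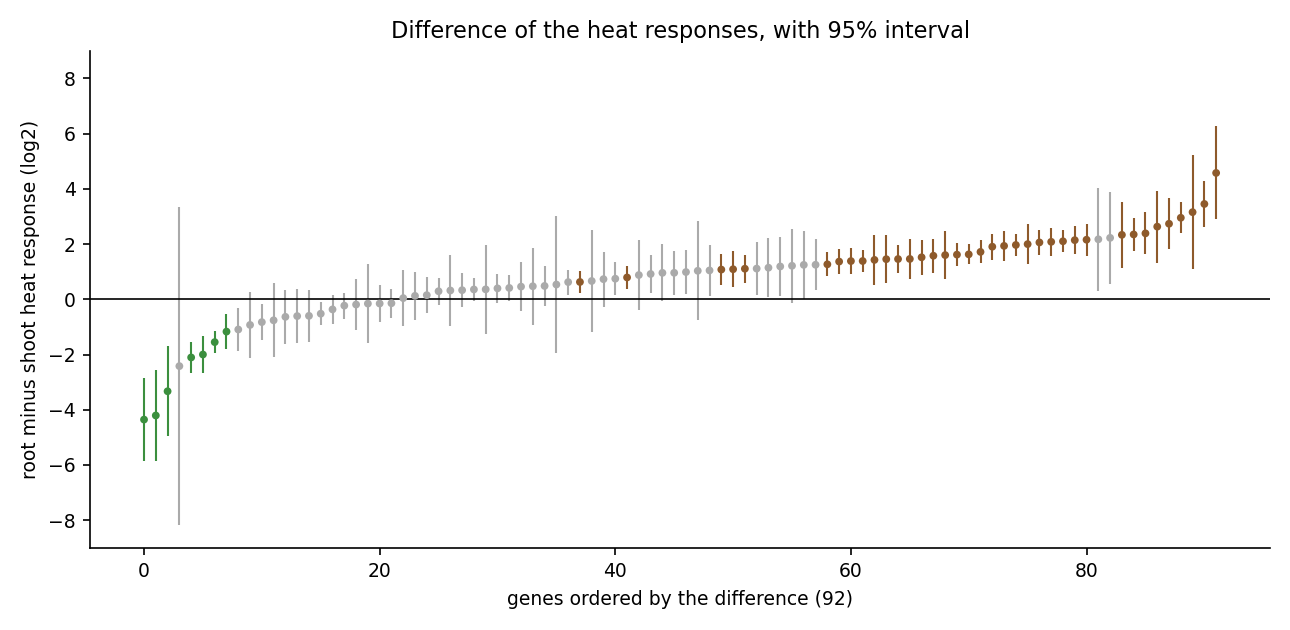
Root minus shoot heat response (log2, y axis) with its 95% interval for the 92 genes in order of the difference (x axis). Brown marks genes called larger in roots, green those called larger in shoots and grey those not called. The long grey line at the left is MLOC_64517, from -8.19 to 3.35. Intervals of genes with few control reads can be too narrow.

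The levels of roots and shoots were also compared within each condition, from the same fit and after scaling all 10 libraries together. These comparisons share their libraries with the interaction. The levels compared also entered the choice of the genes, and the shoot limits were the tighter ones. The counts beside the shares of all genes are therefore a description and carry no weight as a test. In heated plants 63 of the 92 were higher in roots, where 39.6% of all genes tested were, and 15 were higher in shoots, where 36.5% of all genes were, while 14 were not called. The median of roots over shoots was 0.98 on the log2 scale over the 92 and 0.09 over all genes. In control plants 30 of the 92 were higher in roots, where 37.3% of all genes were, 27 were higher in shoots, where 36.7% of all genes were, and 35 were not called. The median there was 0.12 over the 92 and 0.04 over all genes. Both comparisons depended on the scaling. With libraries scaled to their total of reads in genes, 76 were higher in heated roots and 9 in heated shoots, with a median of 1.65 over the 92, and the median of all genes moved by 0.66. In control plants 50 were then higher in roots and 10 in shoots, and the median of all genes moved by 0.94 to 0.98. The shares of all genes called with that scaling were not computed, so these counts stand without a background.

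The largest tissue differences were in few genes. MLOC_70817 stood at 191 CPM (its reads per library size in genes after TMM scaling, the scaling of the fit) in heated roots, against 5865 CPM in heated shoots, and at 0.565 CPM in control roots, against 195 CPM in control shoots. Its root over shoot log2 level was -4.94 (SE 0.25, edgeR adjusted p = 2.5e-10) in heated plants and -8.39 (SE 0.34, edgeR adjusted p = 1.7e-11) in control plants. MLOC_34983 stood at 197 CPM in heated roots, against 17.96 CPM in heated shoots, a log2 level of 3.45 (SE 0.18, edgeR adjusted p = 2.6e-10), and at 8.19 CPM in control roots, against 0.0691 CPM in control shoots. MLOC_51191 stood at 416 CPM in heated roots, against 13.1 CPM in heated shoots, a log2 level of 4.97 (SE 0.28, edgeR adjusted p = 6.6e-10). MLOC_77985 stood at 5874 CPM in heated roots, against 7207 CPM in heated shoots, a log2 level of -0.30 (95% interval -0.82 to 0.23) that was not called. Scaled to the total of reads in genes it was 0.37 and was not called either, so that no direction can be given. Shoot CPM leave out the gene lines that could not be divided.

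Across the 92 genes, those with a larger fold in roots tended to have a larger fold in shoots. This concerns the order of the genes only, since the size of the response differed between tissues for 37 and 7 called genes. No rho over all genes was computed. Spearman's rho between root and shoot log2 folds was 0.777 and between root and shoot heated means 0.819, over 92 genes that share the libraries of each tissue and were selected in both. Genes with higher control means had lower folds, with a rho of -0.310 in roots and -0.448 in shoots, where the control mean enters both measures. Between control and heated means the rho was 0.580 in roots and 0.629 in shoots, where the rule itself ties a high control mean to a high heated mean. These are values across genes, which are not independent replicates.

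MLOC_66477, MLOC_78762, MLOC_10834, MLOC_51191, MLOC_26766 and MLOC_65670 are named after their values were seen. MLOC_66477 and MLOC_78762 had the highest and the second highest fold in roots, 2442 and 2299. MLOC_10834 had the third highest fold in shoots, 1035. MLOC_78762 had 14170 and 21547 normalized counts in heated roots, against 4.91 and 8.62 in control roots, and 1217, 1476 and 1058 in heated shoots, against 2.55, 1.82 and 1.97 in control shoots.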

How the data were processed

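TopHat2 was used by the authors for mapping to the barley genome of Ensembl Plants, HTSeq for counting reads per gene and DESeq for each tissue on its own. For these tools a version, and for the counting a strand setting, was not found in the sources used. The deposited signal values are the authors' mean normalized counts per group. Their own fold changes and p-values, and the tables of genes they called, were not used.

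A mean averages whole reads over their library size factors, and was divided into libraries by searching for whole reads that give all 15 digits. Where several solutions fitted, the single one left after setting aside libraries more than 2-fold apart was taken, as for 3 of the 92 genes in heated shoots (MLOC_18664, MLOC_70817 and MLOC_77985). All 21350 and 21408 root means above 0, and 20680 of 20698 and 20702 of 20721 shoot means (heat, control) were divided. Size factors were 0.854 and 0.837 in heated roots, 1.22 and 1.16 in control roots, 0.871 to 0.975 in heated shoots and 1.02 to 1.18 in control shoots. Of 1000 means moved at random, 0 in each root group and 3 in each shoot group were divided. Reads assigned to no gene or aligned to several places made up 60.6% of normalized reads in heated roots, 60.4% in control roots, 67.7% in heated shoots and 66.6% in control shoots, and were left out.

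edgeR 4.0.16 in R 4.3.3 (TMM, filterByExpr, quasi-likelihood test, Benjamini-Hochberg adjustment over all genes) was fitted with 1 term per group. SE is the log2 value divided by the square root of F. For genes with few control reads it can fall below the counting error, and intervals built from it are then too narrow. The test was tried on simulated data. Named genes are those highest in heat (8 per tissue) or control (3), the 5 most extreme called differences per side, the 3 smallest, those without control reads and those next to each limit, besides those said to be chosen later. The genes and rules were chosen with earlier results of these data known. Alternatives were other scalings, no low-count filter, DESeq2 1.42.0, other limits, and each library left out. The rest was computed in Python 3.11.15 (numpy 2.4.6; pandas 2.3.3; scipy 1.17.1).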

Additional observations from a re-analysis of the deposited data

Results flagged for a closer look

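By the edgeR interaction test, 37 genes had a larger heat response in roots and 7 had a larger one in shoots. Of all genes tested, 10.1% were called larger in roots and 7.76% larger in shoots. The responses that form the difference also chose the genes. On the root side MLOC_69997 (4.58), MLOC_70817 (3.45), MLOC_2695 (3.16), MLOC_11904 (2.95) and MLOC_80014 (2.74) had the largest differences on the log2 scale. On the shoot side these were MLOC_66700 (-4.36), MLOC_10408 (-4.21), MLOC_34983 (-3.33), MLOC_10916 (-2.11) and MLOC_60304 (-2.00). The groups hold 2 or 3 libraries. Each library was left out in turn, and the call of MLOC_2695 was lost in some of these fits. Beyond that, the groups were not screened for a single library standing apart.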

How the results depend on the processing

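With a fold limit of 4 in place of 8, 170 genes were chosen. With other limits of fold or heated mean, pseudocounts or scalings the number was 65 to 96, and with 1 library left out 88 to 93. Of the 37 genes with a larger response in roots, 27 were called under each scaling, filter, tool and left-out library in which they could be fitted, as were all 7 with a larger response in shoots. With 1 library left out these counts ran from 30 to 39 and from 7 to 8. Scaling to the total of reads in genes gave 50 genes higher in roots and 10 higher in shoots in control plants, and 76 and 9 in heated plants. That scaling moved the median of all genes towards roots as well, and the shares of all genes called with it were not computed. With 1 library left out the counts were 28 to 32 (roots) and 23 to 29 (shoots) in control plants, and 59 to 65 (roots) and 12 to 16 (shoots) in heated plants. No direction of a named gene with a call was reversed. Among named genes MLOC_2695, MLOC_66541 and MLOC_25161 lost their call under some settings. MLOC_25161 (1.43, adjusted p = 0.033) did so with total scaling (0.10), with DESeq2 (0.068) and without any of 5 libraries (0.052 to 0.29), its difference being 0.85 without control root library 2. No paired analysis was possible because the recovered libraries carry no replicate letter. Few control reads limit the precision of the fold of such genes.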
